A study of Mus musculus with 6 samples.

Results

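The genes described here encode feedback inhibitors of the ERK pathway and ETS transcription factors that ERK signalling induces. They are 10 genes chosen by symbol, Dusp4, Dusp5, Dusp6, Spry1, Spry2, Spry4, Spred1, Spred2, Etv4 and Etv5, of 24318 genes in the table, and all 10 passed the filter on low values. RNA was sequenced from CAD, a mouse neuronal line of catecholaminergic type, after treatment with an siRNA against circGigyf2 (siCircGigyf2, 3 libraries) or a control siRNA (siNC, 3 libraries). circGigyf2 is a circular RNA made from the Gigyf2 gene. All 6 libraries come from the same line and carry an siRNA. Untreated cells were not analysed here. In the sources used here, neither the siRNA dose nor the time after treatment was given.

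ERK is the last kinase of a relay in which growth factor receptors activate Ras, Ras activates Raf kinases, Raf activates MEK and MEK activates ERK. Active ERK raises the transcription of genes that then restrain the pathway, so the RNA levels of these genes are widely used as a readout of ERK output. Dual-specificity phosphatases (DUSPs) remove the activating phosphates from ERK, Sprouty and Spred proteins act between the receptor and Raf, and Etv4 and Etv5 are ETS factors of the PEA3 subfamily downstream of fibroblast growth factor and Ret signals. ERK phosphorylation itself was not measured.

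The deposited values are FPKM, in which fragment numbers are divided by transcript length and by the fragments mapped in a library, so that levels can be compared between genes. FPKM summed to between 578627 and 624645 per library. Relative to siNC replicate 1, depth estimated from the steps of single fragments was 0.802 to 0.915 with siCircGigyf2, and 0.952 and 0.980 in the remaining controls. Of 14 catecholaminergic neuronal markers, 13 averaged at least 1 FPKM and Ddc did not, and Th, the rate-limiting enzyme of catecholamine synthesis, averaged 3.28 and 4.24 FPKM with siCircGigyf2 and siNC. Their summed level was 802 to 817 FPKM with siCircGigyf2 and 681 to 687 FPKM with siNC. In both groups most of this sum came from Hand2 and from neuronal genes such as Tubb3 and Syt1, not from enzymes such as Th. The 5 that rose were the neuronal genes Tubb3 (120.5 to 177 FPKM), Gap43 (62.7 to 94.9 FPKM) and Syt1, with Hand2 and Slc18a1, which were picked after inspection of their values. Dbh, the enzyme that makes noradrenaline, and the transcription factor genes Gata2 and Phox2a fell, and Th did not pass the test (adjusted p = 0.0659). Of 13 tested markers, the 5 that rose stand beside 19.5% of all tested genes and the 3 that fell beside 18.7%. The Dbh call (1.14 FPKM with siCircGigyf2 against 1.77 with siNC, adjusted p = 0.0434) was lost in 5 of the 13 alternative fits that it entered. Phox2a, whose groups overlapped (adjusted p = 0.0229), lost its call in 6 of 14. Of 16 markers of glia, endothelium, fibroblasts and leukocytes, 2 (Pecam1 and Col1a1) averaged at least 1 FPKM, 5 were listed at 0 in all libraries (Aqp4, Aldh1l1, P2ry12, Col1a2 and Ptprc), and their sum was 9.22 to 10.9 against 8.87 to 9.40 FPKM. Col1a1, a collagen gene of fibroblasts, rose from 0.924 ± 0.116 to 1.47 ± 0.198 FPKM (SD, n = 3, adjusted p = 0.0180), a call that was lost without siCircGigyf2 replicate 1 (0.0606) or siNC replicate 2 (0.0615). The part of these marker differences in the results below was not tested. Gigyf2, the host gene, averaged 21.4 ± 0.330 FPKM (SD, n = 3) with siCircGigyf2 and 23.2 ± 0.0749 FPKM with siNC, a log2 fall of 0.11 (adjusted p = 0.0287). Its call was lost in 6 of 14 alternative fits, at adjusted p from 0.0598 to 0.0845, and it is a gene-level value that does not separate the circular RNA.

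The 10 feedback and ETS genes did not move as a block. The feedback genes Spred1, Spry4, Dusp6 and Dusp5 rose with siCircGigyf2, and the ETS gene Etv4 fell. Dusp4, Spry1, Spry2, Spred2 and Etv5 did not pass the test, so no feedback gene was called lower. In bulk RNA a change in the share of cells that express a gene and a change in its RNA per cell cannot be told apart. The test was limma on log2(FPKM + 1) over all 11420 genes with a mean of at least 1 FPKM, with a Benjamini-Hochberg adjusted p of 0.05. The count of 5 called genes of 10 stands beside 38.2% of all genes tested. The 4 that rose stand beside 19.5% and the 1 that fell beside 18.7%. For 7 of the 10 genes no library of 1 group lay within the range of the other, 6 with siCircGigyf2 above and 1 below. Of all tested genes, 51.0% were separated in this way, 25.7% above and 25.3% below. The median log2 difference of the 10 genes was 0.07, against 0.00035 over all genes tested, and their median absolute difference was 0.22 against 0.12.

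**Figure D1:**
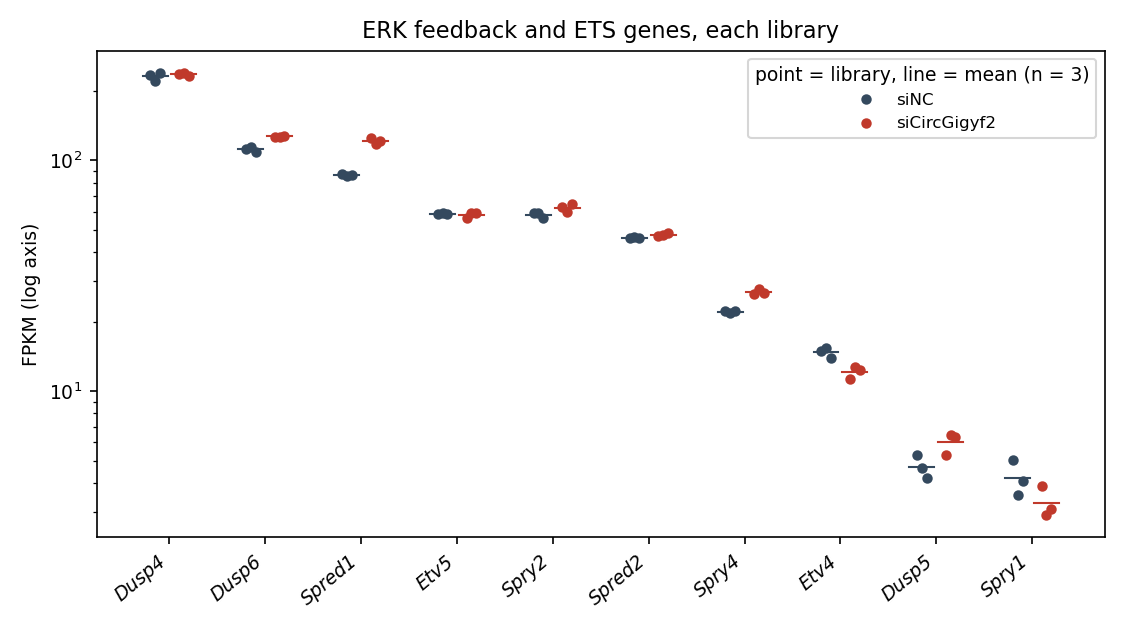
FPKM of each of the 10 genes in every library (log axis), in order of the siNC mean, with siNC in dark blue and siCircGigyf2 in red. Points are libraries and short lines are group means of 3 libraries. Dusp4 lies highest in both groups, Spred1 is separated between the groups by the widest gap, and Dusp5 and Spry1 lie lowest.

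Levels with siNC spanned from 232 FPKM for Dusp4 to 4.21 FPKM for Spry1. In between, the siNC means were 112 for Dusp6, 86.3 for Spred1, 58.9 for Etv5, 58.2 for Spry2, 46.2 for Spred2, 22.0 for Spry4, 14.7 for Etv4 and 4.70 FPKM for Dusp5. Neighbours in this order did not overlap in their libraries, apart from Etv5 with Spry2 and Dusp5 with Spry1. With siCircGigyf2 the order was the same except that Spry2 lay above Etv5, and no neighbours overlapped.

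Dusp6 encodes a cytoplasmic phosphatase selective for ERK and is among the most used transcript readouts of the pathway. Its values were 127.0, 126.9 and 127.2 FPKM with siCircGigyf2 and 111.9, 114.7 and 108.5 FPKM with siNC. The groups did not overlap. The ratio of means was 1.14 and the log2 rise was 0.18 (SE 0.029, limma adjusted p = 0.00136), which kept its direction and its call in all 14 alternative fits, with adjusted p from 0.00119 to 0.00883. The size of this rise was larger than that of 67.8% of all genes tested.

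Dusp4, a nuclear phosphatase that acts on ERK and other mitogen-activated kinases, was the most abundant of the 10 and differed little. Its values were 237, 238 and 233 FPKM with siCircGigyf2 and 234, 222 and 240 FPKM with siNC. The groups overlapped, and the siNC libraries spanned the wider range. The log2 difference was 0.03 (95% interval -0.05 to 0.10, adjusted p = 0.544), so a rise as large as that of Dusp6 lies outside its interval.

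Dusp5 encodes an ERK-selective nuclear phosphatase and was expressed at a low level. It was listed at 5.27, 6.46 and 6.31 FPKM with siCircGigyf2 and at 5.26, 4.66 and 4.19 FPKM with siNC. The groups did not overlap, but the lowest siCircGigyf2 library and the highest siNC library, both replicate 1, were almost equal. Dusp5 rose by 0.30 on the log2 scale (SE 0.090, adjusted p = 0.0286; ratio of means 1.28). The call was lost without siCircGigyf2 replicate 2 (adjusted p = 0.0889) or 3 (0.0848), without siNC replicate 2 (0.0700) or 3 (0.0926), and without a filter on low values (0.0800). Over these and the other alternatives its log2 rise lay between 0.23 and 0.38. GENCODE M21 annotates an antisense transcript, AC137853.2, over 547 exonic bases of Dusp5, and no source used here says how strand was handled, so their reads cannot be told apart.

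The Dusp5 promoter carries the letters of a pair of adjoining CArG boxes, the sequence that serum response factor binds together with ETS partners such as Elk1. The stretches shown are from RefSeq promoters on GRCm38.p6, from 150 to 37 bases before the annotated start for the 3 genes that rose and have an entry there. Capitals mark matches on either strand to these motifs, the CArG box, the Sp1 sequence GGGCGG, the ETS consensus CCGGAAG, the AP-1 site TGANTCA, the cyclic AMP response element TGACGTCA and its core TGACG, which lies within it. The TATA sequence TATAAA was searched as well and is not capitalised.
Dusp5, chr19:53528995-53529108, plus strand: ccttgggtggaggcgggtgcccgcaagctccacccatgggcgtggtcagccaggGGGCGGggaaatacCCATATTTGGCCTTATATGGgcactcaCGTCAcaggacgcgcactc
Dusp6, chr10:99263081-99263194, plus strand: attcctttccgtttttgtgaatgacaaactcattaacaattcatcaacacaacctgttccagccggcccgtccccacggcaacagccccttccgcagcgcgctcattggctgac
Spred1, chr2:117120921-117121034, plus strand: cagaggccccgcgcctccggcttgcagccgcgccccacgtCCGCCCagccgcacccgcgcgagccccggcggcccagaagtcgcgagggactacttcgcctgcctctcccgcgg

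In Dusp5 the CArG boxes lie 82 to 73 and 72 to 63 bases before the start, and they are followed by TGACG on the minus strand. A CArG box was present in 1.63% of 32851 promoter windows, each of 300 bases. Of the 7 feedback and ETS genes with a window (Dusp5, Dusp6, Spry1, Spry2, Spred1, Spred2 and Etv5), 1 held a CArG box, 2 held the TGACG core (20.8% of all windows) and 5 the Sp1 sequence (35.7%). None of the 7 held the ETS consensus (8.86% of all windows), the AP-1 site (7.81%), the full cyclic AMP response element (1.79%) or the TATA sequence (13.6%). Etv5 had 2 windows, so the 7 genes had 8, and a gene was counted if any of its windows matched. The percentages are of windows. Window 2 of Etv5 held no Sp1 sequence. These are matches of letters in short windows, and no binding was measured.

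Spry4, a Sprouty gene induced by fibroblast growth factor signalling, was listed at 26.4, 27.8 and 26.6 FPKM with siCircGigyf2 and at 22.2, 21.7 and 22.2 FPKM with siNC. Every siCircGigyf2 library lay above every siNC library. The ratio of means was 1.22, and the log2 rise of 0.28 (SE 0.035, adjusted p = 0.000401) held in all 14 alternative fits.

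Spry2, the Sprouty gene of highest abundance here, encodes an inhibitor that binds Grb2 and Cbl. It was listed at 62.8, 59.9 and 64.8 FPKM with siCircGigyf2 and at 59.4, 59.0 and 56.1 FPKM with siNC. The groups did not overlap, but the gap between them was narrow. The log2 difference of 0.10 (95% interval 0.01 to 0.19) did not pass the adjusted test (adjusted p = 0.0640, unadjusted p = 0.0265), and it passed without siCircGigyf2 replicate 2 (adjusted p = 0.0270).

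Spry1, a Sprouty gene known for limiting Ret signalling in kidney development, was the least abundant of the 10. It was listed at 3.86, 2.90 and 3.07 FPKM with siCircGigyf2 and at 5.01, 3.55 and 4.07 FPKM with siNC. The highest siCircGigyf2 library lay above the lowest siNC library, and replicate 1 was the highest in both groups. The log2 difference was -0.28 (SE 0.12, adjusted p = 0.0865), opposite in sign to that of Spry4. It passed without siCircGigyf2 replicate 1 (-0.38, adjusted p = 0.0414) and without siNC replicate 2 (-0.37, adjusted p = 0.0431). GENCODE M21 places a transcript of unknown status, Gm42922, on the opposite strand over 710 exonic bases of Spry1.

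Spred1 had the largest difference of the 10 genes. Its protein recruits neurofibromin to the membrane, where neurofibromin switches Ras off. It was listed at 124.6, 117.8 and 121.5 FPKM with siCircGigyf2 and at 87.2, 85.8 and 86.1 FPKM with siNC. All siCircGigyf2 libraries were above all siNC libraries, and the gap between the nearest of them was wider than the range within either group. The ratio of means was 1.40 and the log2 rise was 0.49 (SE 0.030, limma adjusted p = 1.87e-05), larger in size than for 96.7% of all genes tested. It lay between 0.47 and 0.51 over the 14 alternative fits and passed in each.

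Spred2, its close paralog, was listed at 46.9, 47.3 and 48.6 FPKM with siCircGigyf2 and at 46.0, 46.7 and 46.0 FPKM with siNC. These groups did not overlap either, yet they differed by less than 1 FPKM at their nearest libraries. The log2 difference of 0.04 (95% interval -0.03 to 0.11) did not pass the test (adjusted p = 0.305). The interval leaves out the rise seen for Spred1.

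Etv4 and Etv5 encode closely related ETS activators. Etv4 was listed at 11.3, 12.7 and 12.4 FPKM with siCircGigyf2 and at 14.9, 15.4 and 13.9 FPKM with siNC, with no overlap. It fell by 0.26 on the log2 scale (SE 0.055, adjusted p = 0.00565), to a ratio of means of 0.823, and this call held in all 14 alternative fits. Etv5 was listed at 56.2, 59.1 and 59.2 FPKM with siCircGigyf2 and at 58.6, 59.2 and 58.9 FPKM with siNC. The siNC range lay within the siCircGigyf2 range, and the log2 difference was -0.02 (95% interval -0.09 to 0.05, adjusted p = 0.695).

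**Figure D2:**
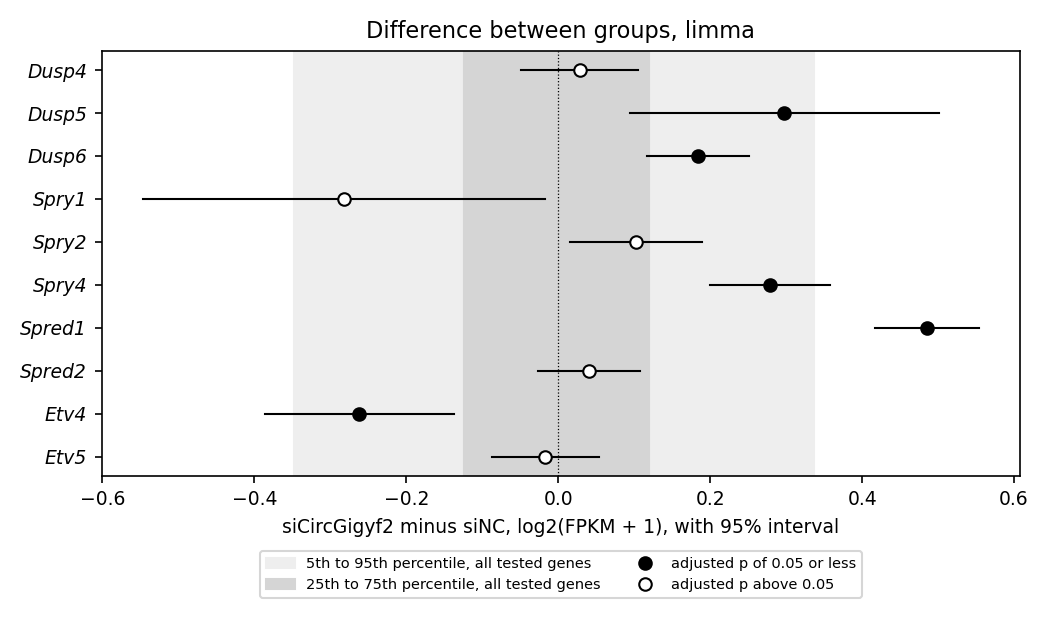
Log2 difference of each gene, siCircGigyf2 minus siNC on log2(FPKM + 1), with its 95% interval from limma. Filled points passed an adjusted p of 0.05. Grey bands give the spread of all 11420 tested genes, from the 5th percentile (-0.35) to the 95th (0.34) and from the 25th (-0.12) to the 75th (0.12). Spred1 lies beyond the outer band, and the other genes lie within it.

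Ratios of paralogs within a library do not depend on how libraries were scaled to each other. Of the 8 pairs within the 4 families, 5 had ratios that did not overlap between the groups. The share of all gene pairs that separate in this way was not computed, and 51.0% of single tested genes did. Spred1 stood at 2.66, 2.49 and 2.50 times Spred2 with siCircGigyf2 and at 1.89, 1.84 and 1.87 times with siNC. The ratio of Etv5 to Etv4 was 4.80 ± 0.152 (SD, n = 3) against 4.00 ± 0.206, that of Spry4 to Spry1 was 8.36 ± 1.40 against 5.33 ± 0.855, that of Spry2 to Spry4 was 2.32 ± 0.150 against 2.64 ± 0.1002, and that of Dusp4 to Dusp6 was 1.86 ± 0.0230 against 2.08 ± 0.137. In these pairs Spred1, Spry4 and Dusp6 were higher relative to a paralog with siCircGigyf2, and Etv4 was lower. Each of these 5 had a two-sided exact permutation p of 0.1, the smallest that 3 libraries against 3 allow, and 0.16 after Benjamini-Hochberg adjustment over the 8 pairs. The ratios of Dusp4 to Dusp5, Dusp6 to Dusp5 and Spry2 to Spry1 overlapped between the groups (exact permutation p = 0.2 each).

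**Figure D3:**
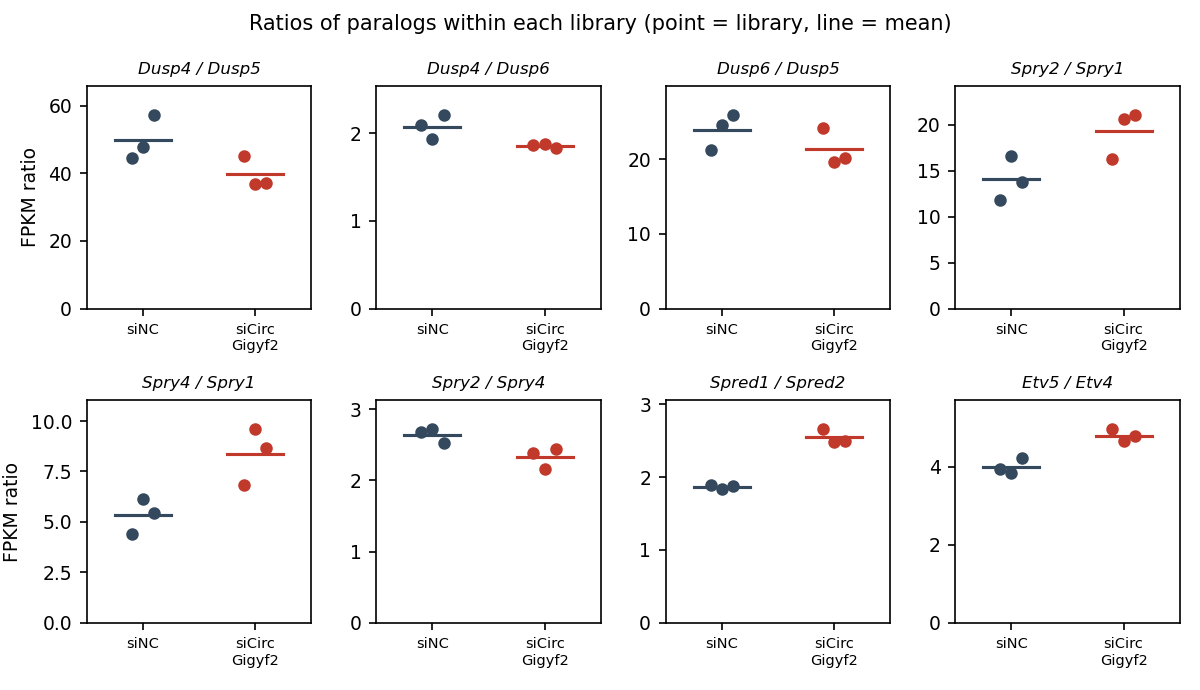
FPKM ratio of each pair of paralogs within a library, from 0, with siNC in dark blue and siCircGigyf2 in red. Points are libraries and lines are means of 3. The Spred1 to Spred2 panel shows the clearest separation, 1.84 to 1.89 with siNC against 2.49 to 2.66 with siCircGigyf2.

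Of 20 tested genes of the relay itself, from Ras to ERK and its ribosomal S6 kinases, 5 rose and 3 fell, with a median log2 difference of 0.03. These 8 of 20 stand beside 38.2% of all tested genes called. Map2k1, which encodes a MEK kinase, fell from 45.1 ± 1.27 to 34.5 ± 1.11 FPKM (SD, n = 3; log2 difference -0.38, adjusted p = 0.000104), whereas its paralog Map2k2 averaged 17.2 and 17.7 FPKM with siNC and siCircGigyf2 (0.03, adjusted p = 0.663). Mapk3, which encodes an ERK kinase, rose from 66.4 ± 3.73 to 78.0 ± 3.64 FPKM (log2 difference 0.23, adjusted p = 0.00539). The Ras family genes Rras and Nras rose by 0.35 and 0.24 on the log2 scale. The largest fall of this list was that of Rps6ka2, an S6 kinase activated by ERK (20.9 ± 0.619 against 28.4 ± 0.491 FPKM, adjusted p = 5.68e-05). Braf and Araf did not pass the test, at log2 differences of -0.12 (adjusted p = 0.0545) and -0.14 (0.103). Map2k2, Braf and Araf were picked after inspection of their values.

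Of 14 tested adaptors and exchange factors that link receptors to Ras, 3 rose and 4 fell (median 0.03). This list and the next stand beside 19.5% of all tested genes that rose and 18.7% that fell. Irs1, the insulin receptor substrate, rose from 6.25 ± 0.212 to 10.4 ± 0.516 FPKM, a log2 difference of 0.66 (adjusted p = 4.99e-05), and Irs2 fell by 0.18. The Irs2 call was lost without siCircGigyf2 replicate 1 (adjusted p = 0.0593) or 3 (0.0561), without siNC replicate 3 (0.0669) and without a filter on low values (0.0521). Crkl and Sos2 rose by 0.21 and 0.22, and Shc1 and Frs2, the adaptor of fibroblast growth factor receptors, fell by 0.20 each. Of 16 other negative regulators of Ras and receptors, 4 rose and 4 fell (median 0.01). Nf1, which encodes the neurofibromin that Spred proteins recruit, rose from 5.08 ± 0.245 to 6.33 ± 0.207 FPKM (adjusted p = 0.00528), as did Cbl and Rasa2. Rasa3 and Rasal2, Ras GTPase-activating proteins, and Flrt3 fell by 0.30, 0.26 and 0.45. Spred3, the remaining Spred gene and picked after inspection, fell from 13.2 to 11.8 FPKM (log2 difference -0.15, adjusted p = 0.0398).

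Among 15 other tested dual-specificity phosphatase genes, 2 rose and 3 fell (median -0.04), where 19.5% of all genes rose and 18.7% fell. Dusp8, a phosphatase of JNK and p38, rose from 3.55 ± 0.320 to 5.38 ± 0.406 FPKM, and Dusp16, a phosphatase of JNK, fell from 13.7 ± 0.515 to 9.86 ± 0.464 FPKM (adjusted p = 0.001101 and 0.000221). Dusp3 rose by 0.17, and Dusp1 and Dusp15 fell by 0.27 and 0.42. Dusp15 lay near the filter, at 0.921 and 1.55 FPKM, and lost its call in 7 of the 13 alternative fits that it entered, at adjusted p from 0.0599 to 0.127. Dusp3 lost its call without siCircGigyf2 replicate 1 (adjusted p = 0.0526) or siNC replicate 3 (0.0597).

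Among 13 other tested ETS factors, 2 rose and 4 fell (median -0.004), where 19.5% of all genes rose and 18.7% fell. Etv1, the remaining gene of the PEA3 subfamily, fell from 19.8 ± 0.423 to 13.995 ± 0.565 FPKM, a log2 difference of -0.47 (adjusted p = 7.30e-05), so that Etv1 and Etv4 fell while Etv5 did not pass the test. Ets2 fell from 27.0 ± 0.315 to 17.9 ± 0.626 FPKM (-0.56, adjusted p = 2.21e-05) and Erf, an ETS repressor that ERK exports from the nucleus, fell by 0.32. Elk1 and Elk3, partners of serum response factor, rose by 0.22 each. Etv6 also fell (-0.32, adjusted p = 0.00694) and was picked after inspection.

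Of 17 other tested genes known to respond to ERK, 10 rose and 2 fell, with a median log2 difference of 0.16, where 19.5% of all genes rose and 18.7% fell. Several of them are immediate early genes that other signals also induce. Vgf, a secreted neuropeptide precursor induced by nerve growth factor, rose from 413 ± 14.1 to 517 ± 13.3 FPKM. Junb rose from 32.4 ± 1.62 to 42.8 ± 2.23 FPKM and Phlda1 from 34.8 ± 1.42 to 45.7 ± 2.66 FPKM, with adjusted p from 0.000199 to 0.000385 for these 3 genes. Fos, Egr1, Ier3, Trib1, Plaur, Ccnd1 and Mcl1 were the other genes that rose, by 0.15 to 0.38, and were picked after inspection. Myc fell by 0.31 and Lif by 0.32. The median was 0.29 with a filter of 5 FPKM and 0.10 without a filter.

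Of 14 tested receptor genes, mostly receptor tyrosine kinases, 5 rose and 4 fell (median 0.04), where 19.5% of all genes rose and 18.7% fell. Ngfr, the low-affinity neurotrophin receptor, rose from 50.8 ± 2.08 to 62.0 ± 1.102 FPKM, Gfra1, the co-receptor of Ret for GDNF, from 4.21 ± 0.400 to 5.86 ± 0.139, and Fgfr1 from 27.3 ± 0.817 to 31.997 ± 1.73 FPKM. Insr, Ddr2 and Igf1r fell by 0.18, 0.17 and 0.17. Ret, the most abundant receptor of the list and picked after inspection, averaged 148 and 139 FPKM with siCircGigyf2 and siNC (log2 difference 0.09, adjusted p = 0.0608). Of 29 growth factor ligand genes, 7 passed the filter, 4 rose and 1 fell, beside the same shares of all genes. Vegfb, Pdgfc and Vegfa rose by 0.46, 0.53 and 0.17, and Hgf fell by 0.38, a call near the threshold (adjusted p = 0.0448) that was lost in 8 of the 13 alternative fits that it entered, at adjusted p from 0.0596 to 0.143.

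**Figure D4:**
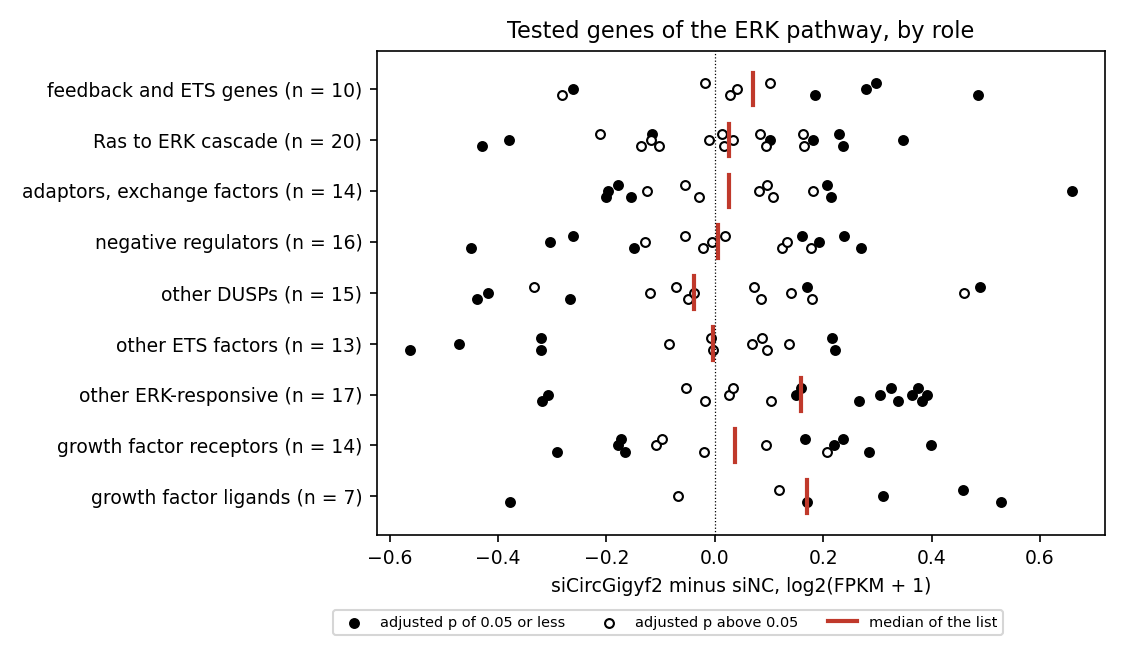
Log2 difference, siCircGigyf2 minus siNC on log2(FPKM + 1), of each tested gene of the pathway, by role. Filled points passed an adjusted p of 0.05, open points did not, and red lines are list medians. The row named growth factor receptors is the list of receptor genes, mostly receptor tyrosine kinases. Every role holds filled points on both sides of 0, and the ERK-responsive genes hold 10 above and 2 below.

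An earlier look at these libraries had linked the letters GCCTACA in 3' UTRs to lower RNA levels with siCircGigyf2, so the same letters were sought here. None of the 10 feedback and ETS genes held GCCTACA in the 3' UTR of its longest coding transcript, where 6.48% of 10472 tested genes with a 3' UTR did. Of 116 tested genes in the 8 other pathway lists, 16 held it (13.8%), of which 6 rose, 5 fell and 5 did not pass the test. Among all genes tested, 19.5% rose and 18.7% fell. The length of the 3' UTR, which was 8469 bases in Cbl, was not taken into account in these shares. The sites of 6 of them are shown, from genes that fell and from genes that rose. Each is 30 bases of the GENCODE M21 transcript, on GRCm38, with GCCTACA in capitals.
Map2k1, chr9:64185865-64185894, minus strand: acgtgtatagtGCCTACAaattgtatgaaa
Rps6ka2, chr17:7302596-7302625, plus strand: gggaaagcccaGCCTACAtcctgggactcc
Rasal2, chr1:157138828-157138857, minus strand: cagagccctcaGCCTACAacctgtgaaagg
Nf1, chr11:79581399-79581428, plus strand: aggggttccctGCCTACAaccttgttgata
Crkl, chr16:17485263-17485292, plus strand: aggacaggcagGCCTACAtacataccttgt
Cbl, chr9:44145548-44145577, minus strand: ctgtaaggggaGCCTACAgtgatatcctta

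Map2k1, Rps6ka2 and Rasal2 fell, by 0.38, 0.43 and 0.26 on the log2 scale, and Nf1, Crkl and Cbl rose, by 0.27, 0.21 and 0.19. In Map2k1, Rasal2 and Nf1 the site shown is followed by a further A, and these 3 genes differed in direction. Rasal2 holds 2 sites, and its other site is followed by G. Since the letters were first picked from differences in these same libraries, the match is a description.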

How the data were processed

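RNA-seq libraries of CAD cells were compared, 3 with siCircGigyf2 and 3 with siNC, with groups from the treatment labels and each column matched by sample title. The authors deposited 1 table of FPKM per gene symbol. Per the submitters' processing notes the build was mm9. No source used here gave the aligner, quantifier, annotation or strand handling. FPKM are not counts, so no count model was used, and absolute depth is unknown. Relative depth came from single-fragment steps among FPKM under 0.3. The labels do not say whether replicates were separate cultures, so a p-value reflects spread between these libraries that may be technical.

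Genes with a mean of at least 1 FPKM entered a linear model of group on log2(FPKM + 1), fitted by limma 3.58.1 (R 4.3.3) with trended empirical Bayes, two-sided tests and Benjamini-Hochberg adjustment over all 11420 genes. Differences are siCircGigyf2 minus siNC on this scale, which understates changes of low genes. Paralog ratios were tested with exact permutation tests in Python 3.11.15. The same fit, tested on simulated data, was used for the 14 alternatives: quantile or median-of-ratios scaling, a replicate block, robust or untrended empirical Bayes, a pseudocount of 0.1, a filter of 5 FPKM or none, and each of 6 libraries left out.

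The 10 genes and the other gene lists were chosen with earlier results of these data known. Genes named are the 10, Gigyf2, and for each list up to 3 with the smallest p in each direction, and others are marked as picked after inspection. Some genes of the lists are not reported here by name, and the counts include them. For Dusp6 the 3 genes of highest Pearson r over the 6 libraries were taken as well. Promoters came from RefSeq (GRCm38.p6), matched by symbol for 7 of the 10 genes, and 3' UTRs from GENCODE M21 (GRCm38), for the longest coding transcript of a gene. No coordinate was converted from mm9.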

Additional observations from a re-analysis of the deposited data

How the results depend on the processing

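Of 139 log2 differences of the 10 genes under the 14 alternatives, 126 kept their direction and side of the threshold, 6 lost the call (all of Dusp5), 4 gained one (3 of Spry1, 1 of Spry2) and 3 changed sign. Dusp4 changed sign to -0.0084 after quantile normalization and to -0.0027 without siNC replicate 2, and Etv5 to 0.0068 without siCircGigyf2 replicate 1, and none of these passed the test. Leaving out 1 library at a time gave -0.0027 to 0.052 for Dusp4 and -0.030 to 0.0068 for Etv5. The number of the 10 genes that rose was 4, or 3 without a filter and with the replicate block, and 3 to 4 when 1 library was left out. The number that fell was 1, or 2 with the replicate block, and 1 to 2 when 1 library was left out. The block took Dusp5 out (adjusted p = 0.0589) and brought Spry1 in (0.0176), but replicate numbers share only a label here, as deviations of same-numbered libraries correlated at 0.16, -0.02 and 0.0025 across genes. Over all genes, counts stayed within 1.5 times under each alternative. Of 693 differences of the 50 genes named from the other lists, 658 kept their call, 35 lost it and 0 changed sign. In the relay from Ras to ERK, 5 genes fell in place of 3 with either scaling or a filter of 5 FPKM. Why these values moved was not tested. Dusp5 and Spry1, the least abundant of the 10, had the widest intervals.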

Other observations

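Of 11419 other tested genes, 1221 followed Dusp6 at a Pearson r of at least 0.9 over the 6 libraries, which fall into 2 separated groups. The closest were Tapbpl (r = 0.999; 20.0 ± 0.162 against 14.9 ± 1.11 FPKM), Zcchc2 (r = 0.998; 23.4 ± 0.232 against 18.3 ± 0.732 FPKM) and Dlg2 (r = 0.996; 22.4 ± 0.613 against 15.0 ± 1.11 FPKM). Since they were picked by their r with Dusp6 over the same libraries, a likeness to it follows from the choice. Like Dusp6, these genes had a smaller SD with siCircGigyf2 than with siNC, and their highest siNC value was in replicate 2.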
